A study of Mus musculus with 27 samples.

Results

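The genes described here encode the major histocompatibility complex (MHC) class I and class II molecules and the proteins they depend on. They are 9 of the 30153 genes in the table of normalized counts, chosen by symbol: B2m, H2-K1, H2-D1 and Tap1 of class I, and Cd74, H2-Aa, H2-Ab1, H2-Eb1 and Ciita of class II. Class I molecules sit on nearly all nucleated cells. Each is a heavy chain, encoded by H2-K1 or H2-D1, paired with the light chain beta-2 microglobulin from B2m, and it shows CD8 T cells peptides that the TAP pump, of which Tap1 is one subunit, moves into the endoplasmic reticulum. Class II molecules are mainly carried by professional antigen-presenting cells such as dendritic cells, macrophages and B cells. H2-Aa and H2-Ab1 encode the alpha and beta chains of I-A, H2-Eb1 encodes the beta chain of I-E, Cd74 encodes the invariant chain that guides new class II molecules, and Ciita encodes the coactivator that switches class II genes on.

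The cells came from Prx1-CreER/Ai14/Rag1 mice, in which the Prx1 promoter drives a tamoxifen-dependent Cre that labels cells with tdTomato. All groups therefore carried the Cre transgene, which also encodes EGFP, the Ai14 reporter and the Rag1 null mutation, which leaves mice without mature B and T cells. Male and female mice of 8 to 12 weeks received 2 tamoxifen injections, and hindlimb tissue was taken 3 days after the last one. No group was untreated or wild type. Bone marrow was flushed from femur and tibia, periosteum was scraped from the bone and digested for 20 min, and muscle was digested for 60 min. Prx1-labelled cells without CD45, the common leukocyte antigen, were sorted by CD105 (endoglin) and CD200. The P1 fraction had CD200 but not CD105, P2 had neither antigen, and P3 had CD105, whatever its CD200. Each of the 9 groups has 3 libraries. The samples came from the same animals, but which animal gave which library is not stated, so a p-value measures the spread between these libraries.

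Normalized counts summed to between 8631881 and 26230908 per library, with between 12396 and 21675 genes above 0. In 3 periosteum libraries, P1 replicate 1, P2 replicate 2 and P3 replicate 2, fewer than 14000 genes were above 0, so the fits were repeated without them, and calls of members that this changed are given beside the result. Globins took 44.2% to 47.3% of the total in bone marrow P2 and 24.1% to 38.6% in periosteum P2, against at most 4.28% elsewhere. The stromal markers Prrx1 (69.0 to 170) and Pdgfra (87.5 to 173) were low in bone marrow P2, where P1 of the same tissue had 1675 to 2413 and 2840 to 3883, so transcripts that mark Prx1-lineage stromal cells were low in that group. In bone marrow P3 they were 132 to 725 and 626 to 1927, also below P1. In periosteum P2, Prrx1 was 64.0 to 2377 and Pdgfra 939 to 2001, against 1516 to 4578 and 1460 to 4431 in periosteum P1. The sorted antigens followed the gates in part: Eng, which encodes CD105, reached at least 774 in every P3 library and at most 569 outside P3, whereas Cd200 in 1 muscle P2 library was 1107, above the lowest muscle P1 library at 1025. Ptprc, which encodes CD45, was 312 to 829 in bone marrow P2 and at most 322 elsewhere. In these pooled cells, fewer cells of a type and less RNA per cell cannot be told apart.

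On GRCm38, 6 of the 9 genes lie in the MHC on chromosome 17: H2-K1 (chr17:33996017-34000347, minus strand), Tap1 (chr17:34187553-34197225, plus), H2-Ab1 (chr17:34257689-34269419, plus), H2-Aa (chr17:34282744-34287823, minus), H2-Eb1 (chr17:34305867-34316674, plus) and H2-D1 (chr17:35262730-35267499, plus). B2m lies on chromosome 2 (chr2:122147686-122153083, plus) and Ciita on chromosome 16 (chr16:10480059-10528418, plus). RefSeq promoter sequences on GRCm38.p6 were matched for 6 of the 9 genes: B2m, H2-K1, Tap1, H2-Aa, H2-Eb1 and H2-D1. Bases upstream of 3 start sites are shown because class I and class II promoters carry different known control elements. In the lines that follow, capitals mark ATTGG (the Y box core, CCAAT read on the other strand), an interferon response element in B2m (GAAA repeated after a gap of 2 bases), the NF-kB site of the class I enhancer in H2-K1, and in H2-Aa a cyclic AMP response element, in which TGACGT lies on both strands and overlaps itself.
B2m, chr2:122147437-122147685, plus strand: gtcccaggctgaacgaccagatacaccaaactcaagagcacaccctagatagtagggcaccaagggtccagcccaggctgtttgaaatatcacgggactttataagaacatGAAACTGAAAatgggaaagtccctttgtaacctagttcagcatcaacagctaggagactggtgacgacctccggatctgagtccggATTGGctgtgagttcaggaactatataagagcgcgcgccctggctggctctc
H2-K1, chr17:34000348-34000597, minus strand: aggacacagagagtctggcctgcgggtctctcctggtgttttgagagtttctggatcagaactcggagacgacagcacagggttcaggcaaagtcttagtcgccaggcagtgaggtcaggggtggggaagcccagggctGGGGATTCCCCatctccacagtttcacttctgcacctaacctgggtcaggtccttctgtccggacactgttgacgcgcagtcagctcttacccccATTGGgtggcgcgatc
H2-Aa, chr17:34287824-34288073, minus strand: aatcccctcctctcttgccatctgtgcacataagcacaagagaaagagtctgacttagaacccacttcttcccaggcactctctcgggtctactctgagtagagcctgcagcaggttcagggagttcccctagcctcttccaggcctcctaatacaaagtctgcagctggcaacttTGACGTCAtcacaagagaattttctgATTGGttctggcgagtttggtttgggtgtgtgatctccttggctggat

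All 6 matched promoters held ATTGG within 250 bases upstream, on one strand or the other, as did 33.8% of 32851 mouse promoters of the same length. The spaced GAAA pattern was found among the 6 in B2m alone and in 2.98% of all promoters. Other spellings of the interferon response element were not searched, so nothing follows for the heavy chain promoters. The letters TGACGT were found in H2-Aa alone and in 6.47% of all. The NF-kB site, searched letter for letter as capitalized in H2-K1, was found in H2-K1 and H2-D1 and in 0.0304% of all promoters, which is 10 promoters of 9 genes, and the only other H2 gene among these was H2-Q6. The 30 bases around this site were identical at 29 positions between the 2 heavy chain genes, whose transcript levels are compared in the next paragraphs. The site in H2-D1 lies inside an annotated exon, so only these bases are shown.
H2-K1, chr17:34000438-34000467, minus strand: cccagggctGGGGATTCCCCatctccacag
H2-D1, chr17:35262914-35262943, plus strand: cccagggctGGGGATTCCCCatctcctcag

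Transcripts of B2m, H2-K1 and H2-D1 were abundant in all 27 libraries. By group mean all 3 were highest in bone marrow P1, and within each tissue all 3 were lowest in P2. Normalized counts ranged from 3338 to 42425 for B2m, from 707 to 19077 for H2-K1 and from 4500.4 to 70130.2 for H2-D1. Per kilobase of exon, the median library had 17038 for B2m, 6908 for H2-D1 and 1975 for H2-K1. Together the 3 genes took 0.538% to 0.699% of the total in bone marrow P1, 0.401% to 0.843% across the 9 P3 libraries and 0.0654% to 0.112% across the 9 P2 libraries. As a share of the total, bone marrow P1 and P3 therefore overlapped, and P2 stayed apart from both.

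**Figure D1:**
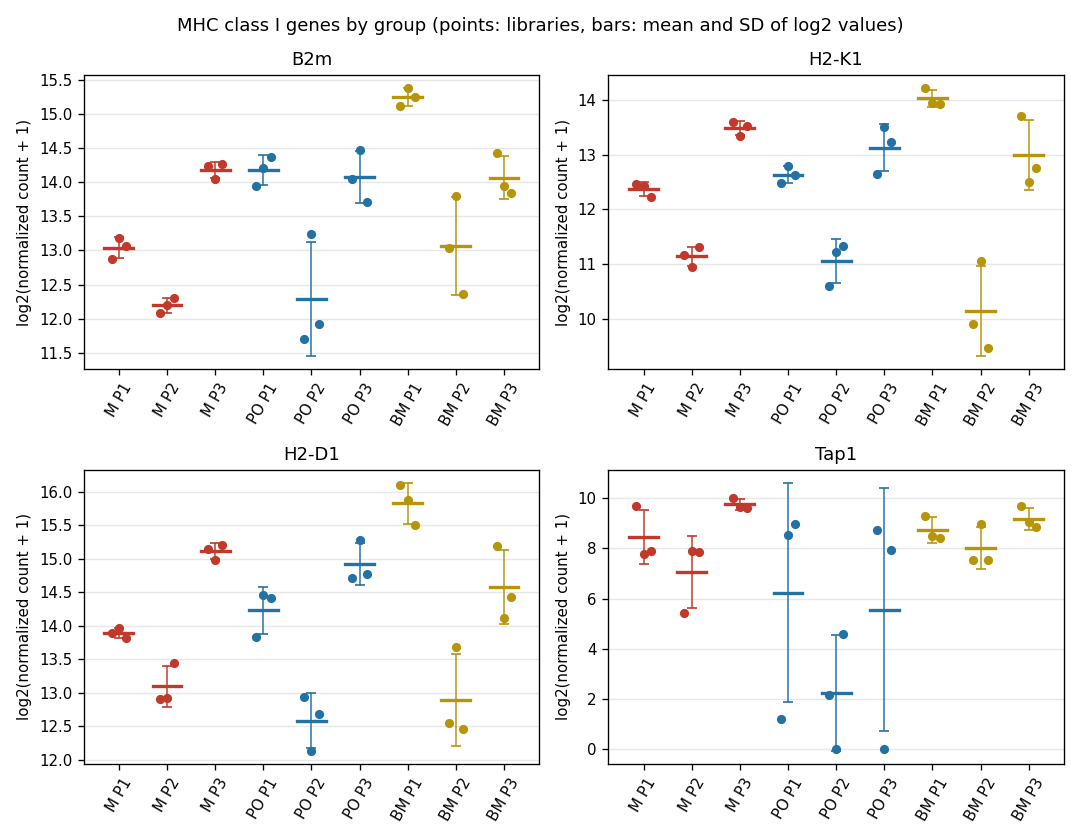
Levels of the 4 class I genes as log2(normalized count + 1) on the vertical axis, by group (M, muscle; PO, periosteum; BM, bone marrow) on the horizontal axis, with 1 point per library and bars for the mean and SD of 3 libraries. B2m, H2-K1 and H2-D1 share a dip in P2 of each tissue and a peak in bone marrow P1, whereas Tap1 spans the whole axis in periosteum and is at 0 in 2 of its libraries.

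B2m, the light chain of every class I molecule, had 35319, 42425 and 39008 normalized counts in the 3 libraries of bone marrow P1. It had 8423, 14170 and 5240.3 in bone marrow P2, and 21924, 15679 and 14652 in bone marrow P3. No library of these 3 groups fell in the range of another, with P1 above P3 and P3 above P2. In periosteum, B2m was 15694, 18941 and 21198 in P1, 3338, 9654 and 3866 in P2, and 16872, 22772 and 13378 in P3. Here P1 and P3 overlapped and both stood above P2. In muscle, B2m was 7526, 9251 and 8563 in P1, 4326, 4707 and 5065 in P2, and 19314, 16968 and 19618 in P3. All 3 muscle groups were separate, and P3 rather than P1 was the highest. Of the 8 pairs of neighbours in the order of the 9 group means, 6 overlapped in range, and the gap between bone marrow P1 (38917 ± 3554, SD, n = 3) and the next group, muscle P3 (18633 ± 1450, SD, n = 3), was one of the other 2.

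H2-K1 and H2-D1, the classical heavy chains, followed B2m. H2-K1 was 16815 ± 1959 in bone marrow P1, 1258 ± 754 in P2 and 8711 ± 4118 in P3. In periosteum it was 6393 ± 686, 2171 ± 550 and 9229 ± 2614, and in muscle 5341 ± 457, 2264 ± 278 and 11531 ± 1024, in the same order of groups (SD, n = 3 throughout). The libraries of the P2 groups, 707 to 2577, lay below every other library, the lowest of which was muscle P1 at 4820.3. For H2-D1 the means were 58905 ± 11965, 8229 ± 4230 and 25732 ± 10339 in bone marrow, 19584 ± 4415, 6298 ± 1688 and 31462 ± 7170 in periosteum, and 15253 ± 795, 8868 ± 1969 and 35493 ± 2766 in muscle. The 9 P2 libraries, 4500.4 to 13109, were again below every other library, the lowest of which was muscle P1 at 14478. Exons of both genes resemble those of other class I genes: 3.10% of the 75-base stretches of H2-K1 and 5.40% of those of H2-D1 occur in another gene, so a small part of their counts may be shared.

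Within each tissue, P2 was set against P3 and P1 in the same model, where a call needed a log2 fold change of over 1.5 in size as well as an adjusted p under 0.05. Over 18 pairs of groups, B2m, H2-K1 and H2-D1 were called in 18 of 54 tests (33.3%), the other 5 members tested in 9 of 90, and all genes in 13.8%. The pairs reuse the 9 groups and these 3 genes were correlated, so the tests are not separate results. The SE of a pair was 0.29 to 0.33 for these 3 genes and 1.38 to 1.93 for the other 5, so the rates also differ in precision. Per gene, H2-D1 was called in 7 pairs, H2-K1 in 6, B2m in 5, Ciita in 3, Tap1, Cd74 and H2-Aa in 2 each, and H2-Ab1 in 0 (limma). In muscle, P2 was lower than P3 for B2m by -1.99 ± 0.31 (log2 fold change ± SE), H2-K1 by -2.35 ± 0.33 and H2-D1 by -2.02 ± 0.29, with limma adjusted p of 8.47e-05, 1.83e-05 and 2.59e-05. In periosteum the same contrast gave -1.79, -2.08 and -2.33 (limma adjusted p at most 0.000338). In bone marrow it gave -2.85 for H2-K1 and -1.69 for H2-D1, both called (limma adjusted p 2.07e-06 and 0.000239), and -1.003 for B2m, under the fold threshold (limma adjusted p 0.0244). These were 3 of the 8 members tested in muscle, against 11.2% of all genes, 3 of 8 in periosteum, against 17.1%, and 3 of 8 in bone marrow with Ciita, against 20%.

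P1 was above P2 for the same 3 genes in bone and less clearly so in muscle. In bone marrow the log2 fold changes were 2.18 ± 0.31 for B2m, 3.90 ± 0.33 for H2-K1 and 2.93 ± 0.29 for H2-D1 (limma adjusted p at most 1.09e-05), and in periosteum 1.89 ± 0.31, 1.59 ± 0.33 and 1.65 ± 0.29 (limma adjusted p at most 0.00128). With Ciita and H2-Aa these were 5 of 8 members in bone marrow, against 34% of all genes, and with Cd74 4 of 8 in periosteum, against 19.1%. In muscle the values were 0.84, 1.24 and 0.80 (limma adjusted p 0.0983, 0.0158 and 0.0868), so H2-K1 missed the fold threshold alone. None of the 8 members was called by limma there (3 had an unadjusted p below 0.05), against 8.21% of all genes. Rescaling without the globins, chosen after seeing the data, left 13 of the 18 class I calls among the pairs and kept their directions. It took B2m in bone marrow P1 against P2 to 1.46 and H2-K1 in periosteum P1 against P2 to 1.499, both under the fold threshold. Without the 3 periosteum libraries of few genes, also chosen after seeing the data, 17 of the 18 were left, and the 1 lost was H2-D1 in periosteum P1 against bone marrow P1 (-1.39). Leaving out 1 library ended 3 of these class I calls in periosteum, with a fold under the threshold: B2m in P2 against P3 without P2 replicate 1 (-1.498), H2-K1 in P1 against P2 without P2 replicate 1 (1.36) and H2-D1 in P1 against P2 without P2 replicate 2 (1.42). H2-D1 in bone marrow P2 against P3 was likewise not called without P2 replicate 3 or P3 replicate 1, where its lowest size was -1.38.

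By normalized counts, P1 and P3 stood in opposite orders in muscle and bone marrow for B2m, H2-K1 and H2-D1. As a share of the total, which in bone marrow P1 holds large stromal counts, the sum of the 3 genes overlapped between bone marrow P1 (0.538% to 0.699%) and P3 (0.401% to 0.843%). It did not overlap between muscle P1 (0.243% to 0.251%) and P3 (0.520% to 0.656%). In muscle, P1 had lower B2m, H2-K1 and H2-D1 than P3 by -1.14, -1.11 and -1.22, in bone marrow it had higher levels by 1.18, 1.04 and 1.25, and none of these 6 values passed both thresholds. The call count was 0 of 8 in muscle (3 with an unadjusted p below 0.05 in limma), against 0.466% of all genes, and 1 of 8 in bone marrow, H2-Aa, against 6.6%. In periosteum the differences were 0.10, -0.49 and -0.69, and Cd74 was the 1 member called, against 4.18%.

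**Figure D2:**
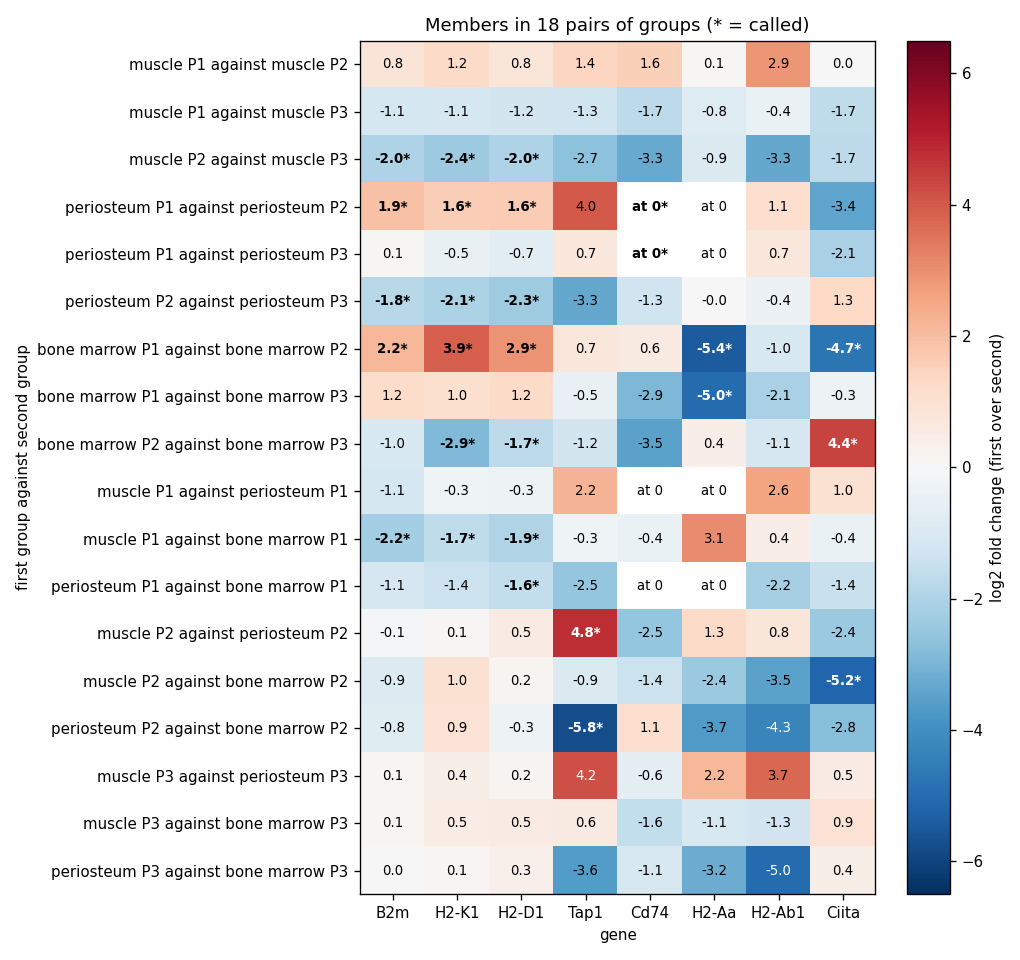
Log2 fold changes (colour and number, first group over second) of the 8 members tested, on the horizontal axis, in 18 pairs of groups, on the vertical axis; an asterisk marks a call, and white cells reading "at 0" have a group listed at 0 in all 3 libraries, for which no fold is given. B2m, H2-K1 and H2-D1 share their sign in each pair of P2 with P1 or P3 of its own tissue and in each pair with bone marrow P1, whereas their signs differ between the P2 groups of 2 tissues.

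P1 against the mean of P2 and P3 is the comparison that separates the CD200+ CD105- fraction from the rest. In bone marrow, 4 of 8 members were called, against 18.9% of all genes: H2-K1 (2.47 ± 0.28), H2-D1 (2.09 ± 0.25) and B2m (1.68 ± 0.27) were higher in P1 (limma adjusted p 8.08e-07, 1.54e-06 and 7.64e-05), and H2-Aa was lower (-5.21 ± 1.31, limma adjusted p 0.006). In periosteum Cd74 alone was called, against 9.16%, and in muscle none (0 at an unadjusted p below 0.05 in limma), against 1.05%. In muscle the 3 class I values were -0.15, 0.07 and -0.21, P1 lying between P2 and P3. Over all tissues, 2 of 8 members were called, H2-Aa (-2.65 ± 0.76, limma adjusted p 0.0143) and Ciita (-2.04 ± 0.69, limma adjusted p 0.0369), against 14.5% of all genes. The Ciita call was lost in 11 of the 27 fits that left out 1 library (limma adjusted p 0.0177 to 0.109). The class I genes were at 0.84 for B2m, 1.03 for H2-K1 and 0.79 for H2-D1 there, with limma adjusted p of at most 0.000371 but under the fold threshold. Rescaled without globins, the bone marrow values of B2m and H2-D1 were 0.82 and 1.23, no longer called, and that of H2-K1 was 1.61, still called.

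The change of P1 differed between tissues for the same genes. Set against bone marrow, the change in muscle was smaller by -1.83 ± 0.38 for B2m, -2.40 ± 0.40 for H2-K1 and -2.30 ± 0.35 for H2-D1 (limma adjusted p 0.00345, 0.000395 and 0.000168). These were 3 of 8 members, against 7.41% of all genes. The change in periosteum was smaller than in bone marrow by -1.92 ± 0.40 for H2-K1 and -1.61 ± 0.35 for H2-D1 (limma adjusted p 0.00818 and 0.0129), 2 of 8 members against 2.8%. Muscle and periosteum differed in 0 of 8 (2 with an unadjusted p below 0.05 in limma), against 2.44%. Rescaled without globins, none of the 5 was called: the values were -0.69, -1.26 and -1.16 for muscle and -1.28 and -0.97 for periosteum. The H2-D1 call for periosteum was also lost without bone marrow P1 replicate 1, bone marrow P3 replicate 2 or periosteum P1 replicate 1 (-1.41 to -1.81 over the 27 fits that left out 1 library), and without the 3 periosteum libraries of few genes (-1.43). In that last fit, B2m was called for muscle minus periosteum (-1.60, limma adjusted p 0.00707).

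Between tissues, all calls of B2m, H2-K1 and H2-D1 were in P1. Muscle P1 had less B2m than bone marrow P1 by -2.20 ± 0.31, less H2-K1 by -1.65 ± 0.33 and less H2-D1 by -1.93 ± 0.29 (limma adjusted p 3.03e-05, 0.0013 and 6.2e-05), 3 of 8 members against 8.34% of all genes. Periosteum P1 had less H2-D1 than bone marrow P1 by -1.60 ± 0.29 (limma adjusted p 0.00111), the 1 member called against 4.87%. In this pair H2-K1 (-1.39, limma adjusted p 0.011) and B2m (-1.07, limma adjusted p 0.045) were under the fold threshold. Muscle P1 and periosteum P1 gave 0 calls (3 with an unadjusted p below 0.05 in limma), against 4.9%, with B2m at -1.13 (limma adjusted p 0.0319). Among the P2 groups none of the 3 was called, and their signs differed: muscle P2 against bone marrow P2 gave -0.87 for B2m (limma adjusted p 0.0289), 1.002 for H2-K1 (limma adjusted p 0.0171) and 0.20 for H2-D1, and periosteum P2 against bone marrow P2 gave -0.78, 0.91 and -0.31. Among the P3 groups the differences of B2m, H2-K1 and H2-D1 were 0.01 to 0.53 in size, and no member was called in muscle against periosteum (limma, 1 at an unadjusted p below 0.05), muscle against bone marrow (0) or periosteum against bone marrow (2), against 3.5%, 10.4% and 6.94% of all genes. Averaged over P1, P2 and P3, muscle and bone marrow differed in 0 of 8 members (limma, 2 at an unadjusted p below 0.05), against 21.7% of all genes, and B2m was at -0.98 ± 0.18 (limma adjusted p 0.000166), under the fold threshold. When libraries were rescaled without globins, H2-K1 and H2-D1 in muscle P1 against bone marrow P1 (-0.99 and -1.27) and H2-D1 in periosteum P1 against bone marrow P1 (-1.13) were under the fold threshold. The last was also not called without bone marrow P1 replicate 1 or periosteum P1 replicate 1, where its smallest size was -1.39.

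Tap1, the peptide pump subunit, was far lower than the heavy chains. Averaged over P1, P2 and P3 it was lowest in periosteum, and in the main fit each called pair of groups involved periosteum P2. It was 828, 215 and 239 in muscle P1, 41.9, 239 and 233 in P2, and 1022, 798 and 779 in P3. In bone marrow it was 632, 355 and 335 in P1, 184.2, 498 and 184.0 in P2, and 817, 522 and 458 in P3. In periosteum it was 1.30, 368 and 503 in P1, 3.46, 0 and 23.1 in P2, and 427, 0 and 244 in P3. The periosteum libraries with few genes are the 1.30 and both values listed at 0, and the other 2 libraries of periosteum P2 were below every muscle and bone marrow library.

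Tap1 was higher in muscle than in periosteum by 3.74 ± 1.03 (limma adjusted p 0.0103) and periosteum was below bone marrow by -3.96 ± 1.03 (limma adjusted p 0.00673). Without the 3 periosteum libraries with few genes these values were 1.60 and -1.82, both still called (limma adjusted p 0.0136 and 0.0057). Of the pairs, periosteum P1 and P3 were not called against the same fraction of muscle (limma adjusted p 0.608 and 0.196) or of bone marrow (0.536 and 0.243). Periosteum P2 differed from muscle P2 (4.82 in favour of muscle, limma adjusted p 0.045, 1 of 8 members against 28% of all genes) and from bone marrow P2 (-5.76, limma adjusted p 0.0233, 1 of 8 against 20%). The first was lost in 19 of the 27 fits that left out 1 library (limma adjusted p 0.0102 to 0.173), and the second in 3, without periosteum P2 replicate 2 or bone marrow P2 replicate 2 or 3 (up to 0.0966). With the 3 libraries left out, Tap1 was also called in muscle P2 against P3 (-2.68, limma adjusted p 0.0093), in P1 against P2 and P3 of periosteum (2.90, limma adjusted p 0.0164), and in periosteum P1 against P2 (5.38, limma adjusted p 0.000161) and P2 against P3 (-4.96, limma adjusted p 0.000532), which leaves 2, 2 and 2 libraries in the periosteum groups. Tap1 shares 212 exonic bases with Psmb9 on the opposite strand and the libraries do not mark strand. Psmb9, an immunoproteasome subunit, had a similar pattern, with 5.75, 0 and 0 in periosteum P2 and at least 78.1 in every muscle and bone marrow library, and the 2 genes cannot be told apart over the shared bases.

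Class II transcripts were low in every group. Cd74 ranged from 0 to 361 with a median library of 30.4, H2-Ab1 from 0 to 214 with a median of 32.2, H2-Aa from 0 to 201 with a median of 14.4 and Ciita from 0 to 259 with a median of 9.55. H2-Eb1 was listed at 0 in 25 of 27 libraries and reached 5.11 in 1 muscle P3 and 5.21 in 1 bone marrow P1 library, so it did not reach 10 in the 3 libraries that testing required, and 8 of the 9 members were tested. Summed, Cd74, H2-Aa, H2-Ab1 and H2-Eb1 gave 0 to 705 per library, where B2m, H2-K1 and H2-D1 summed to 11559 to 124526. A value listed at 0 does not show that the gene was silent. Neighbouring groups in the order of the means overlapped in 8 of 8 pairs for each of the 5 class II genes, so no order of the 9 groups can be read for them.

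**Figure D3:**
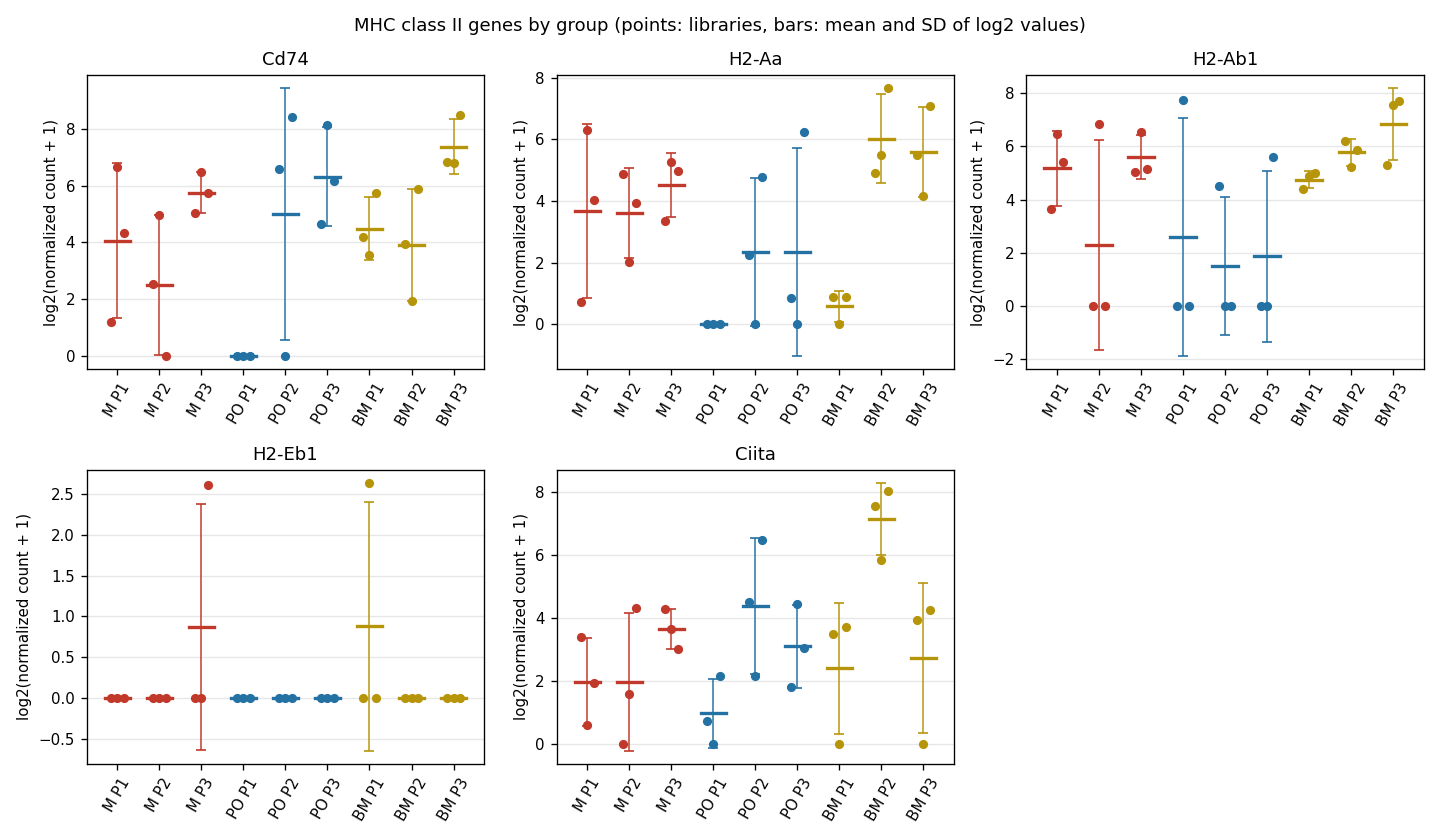
Levels of the 5 class II genes as log2(normalized count + 1) on the vertical axis, by group (M, muscle; PO, periosteum; BM, bone marrow) on the horizontal axis, with 1 point per library and bars for the mean and SD of 3 libraries; the vertical scale differs between panels. Cd74 and H2-Aa sit at 0 in all 3 periosteum P1 libraries, Ciita has its highest group mean in bone marrow P2, overlapping periosteum P2, and H2-Eb1 is above 0 in 2 libraries.

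Cd74, the invariant chain (on chromosome 18, plus strand), was listed at 0 in all 3 libraries of periosteum P1. It was 94.9, 0 and 348 in periosteum P2 and 24.1, 284 and 71.7 in P3. It was therefore called lower in P1 than in P2 and P3 of periosteum (limma adjusted p 0.0152), than in P2 (limma adjusted p 0.0402) and than in P3 (limma adjusted p 0.033), with no fold given against a group at 0. Without periosteum P1 replicate 1, 0 of 8 members were called in P1 against P2 and P3 of periosteum (Cd74 limma adjusted p 0.0528). The call against P2 was lost in 5 of the 27 fits that left out 1 library and that against P3 in 5, each time on leaving out a periosteum library (limma adjusted p up to 0.194 and 0.122). Without the 3 periosteum libraries of few genes the call against P3 was lost too (limma adjusted p 0.0582), while those against P2 and against both remained (0.00293 and 0.00524). In the same fit Cd74 was lower over all tissues in P1 (limma adjusted p 0.0124) and lower in muscle P2 than in periosteum P2 (-5.02, limma adjusted p 0.0138). In bone marrow P3, Cd74 was 113, 112 and 361, above bone marrow P1 (17.2, 10.8 and 52.1) and bone marrow P2 (14.4, 2.82 and 58.0) in every library. Neither bone marrow difference was called (-2.89, limma adjusted p 0.44, and -3.46, limma adjusted p 0.154). In muscle, Cd74 was 1.28, 100.2 and 19.3 in P1, 4.76, 30.4 and 0 in P2, and 31.7, 89.0 and 53.2 in P3, with overlapping groups.

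H2-Aa, the I-A alpha chain, was almost undetected in P1 of both bone compartments. It was 0.836, 0 and 0.843 in bone marrow P1, 29.1, 43.8 and 201 in P2, and 43.6, 17.0 and 135 in P3. P1 did not overlap P2 or P3, and both differences were called (-5.43 ± 1.51 and -4.99 ± 1.51, limma adjusted p 0.00763 and 0.044). The call against P3 was lost in 12 of the 27 fits that left out 1 library (limma adjusted p 0.0179 to 0.218). In periosteum it was listed at 0 in all 3 P1 libraries, and was 3.77, 0 and 26.4 in P2 and 0.803, 0 and 73.6 in P3. In muscle P1 it was 0.639, 77.9 and 15.3, within or above the range of muscle P2 (3.04 to 28.1) and P3 (9.14 to 37.6) in 2 of the 3. Averaged over P1, P2 and P3, H2-Aa was higher in muscle than in periosteum by 2.37 ± 0.87 (limma adjusted p 0.0492) and periosteum was below bone marrow by -2.49 ± 0.87 (limma adjusted p 0.0377). With Tap1, these made 2 of 8 members called in muscle against periosteum, where 20.4% of all genes were called. The fitted values include the group at 0 and depend on the pseudocount, and without the 3 periosteum libraries they were 1.59 and -1.71 and neither was called (limma adjusted p 0.213 and 0.178). Leaving out 1 library lost the first call in 22 of 27 fits and the second in 10 (limma adjusted p up to 0.114 and 0.0848).

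H2-Ab1, the I-A beta chain, was above 0 in all 9 bone marrow libraries. It was 19.8, 28.7 and 30.7 in P1, 73.8, 36.8 and 57.2 in P2 and 38.4, 186 and 208 in P3, so that P1 lay below both other groups in every library. In periosteum it was above 0 in 3 of 9 libraries, at 214 in 1 P1 library, 21.7 in 1 P2 library and 47.1 in 1 P3 library. Periosteum was lower than bone marrow by -3.81 ± 1.12 (limma adjusted p 0.0145), which with Tap1 and H2-Aa made 3 of 8 members, against 20.8% of all genes. Without the 3 periosteum libraries the value was -2.82 (limma adjusted p 0.0918), not called. In muscle it was 11.5, 87.3 and 41.4 in P1, 0, 115 and 0 in P2, and 32.23, 93.3 and 34.97 in P3, with overlapping groups.

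Ciita, the class II coactivator, had its highest group mean in bone marrow P2. Its 3 libraries had 187, 56.3 and 259, and of the other 24 libraries 1, a periosteum P2 library at 87.2, lay within that range and the rest below it. Bone marrow P1 had 10.2, 0 and 12.01 and bone marrow P3 had 14.4, 0 and 17.97, and both were lower than P2, with P1 against P2 at -4.74 ± 1.38 and P2 against P3 at 4.41 ± 1.38 (limma adjusted p 0.0102 and 0.0254). The P1 call was lost without bone marrow P1 replicate 2 (limma adjusted p 0.0785), and the P3 call without bone marrow P2 replicate 1 or 3 or P3 replicate 2 (up to 0.165). Muscle P2, at 0, 2.02 and 18.8, was also lower than bone marrow P2 (-5.17 ± 1.38, limma adjusted p 0.00472), the 1 of 8 members called against 40.1% of all genes. H2-Aa also had its highest group mean in bone marrow P2 (91.2 ± 95.1, SD, n = 3), and its range overlapped that of bone marrow P3 (65.3 ± 62.0). The means of Cd74 and H2-Ab1 were lower in bone marrow P2 than in P3, and neither difference was called. Of the class II pathway genes, H2-DMb2 was 96.6 to 128 in bone marrow P2, listed at 0 in all of P1 and at most 18.02 in P3. H2-Ob and H2-Eb2 also had their highest bone marrow mean in P2, with ranges that overlapped those of P3. These 3 were picked after values were seen, and Ctsl and Lgmn of the list were called higher in bone marrow P1 than in P2 and P3 (5.59 and 2.54, limma). Of the 16 list genes tested, bone marrow P1 against P2 had 2 higher and 4 lower, where 34% of all genes were called. Bone marrow P2 against P3 had 1 higher and 2 lower, against 20%. Ciita shares 329 exonic bases with Dexi on the opposite strand, and the 2 genes cannot be told apart over these bases. Dexi was 105 to 243 in bone marrow P1, 16.1 to 57.9 in P2 and 15.6 to 93.4 in P3, and 0 to 271 in periosteum P2. Its part in the Ciita values was not tested.

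Markers of other cells also differed between the groups, not always in the direction of these levels, and their part in the results was not tested. The erythroid list, 8 of 9 genes in the table, had a median of at least 10 for 8 of 8 genes in every group but muscle P1 and periosteum P1 (6 each). It summed to 8053860 to 12804800 in bone marrow P2 and 3447740 to 9538490 in periosteum P2, the groups with the lowest class I levels in those tissues, against 120687 to 496731 in bone marrow P1 and 15307 to 47645 in periosteum P1. Its marker Hbb-bs was above 0 in all 27 libraries. Muscle P2 had the lowest class I levels in muscle with 174339 to 289762 erythroid counts, and it held most of the muscle fibre transcripts Acta1 (1030840 to 1275860) and Ckm (166300 to 195979), named after their values were seen. The endothelial list, 12 of 12 genes, summed to 52228 to 74341 in muscle P3 and 29353 to 51494 in periosteum P3, where class I was high, and to 275 to 715 in bone marrow P1, where class I was highest. The endothelial marker Cdh5 was 0 to 1.71 in bone marrow P1 and Pecam1 74.3 to 136, against 1887 to 2344 and 6067 to 10537 in muscle P3.

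For class II, the macrophage and dendritic cell list (15 of 16 genes in the table) had a median of at least 10 for 13 of 15 genes in bone marrow P2, 8 in bone marrow P3 and 5 to 7 in the other groups. It summed to 704 to 1714 in bone marrow P2, 981 to 2513 in P3 and 245 to 597 in P1. In periosteum it was 656 to 826 in P1, where Cd74 and H2-Aa were listed at 0 throughout, 132 to 1244 in P2 and 311 to 1100.3 in P3. In periosteum P1, Csf1r ranged from 0 to 319.5 with a median of 67.0. Of its defining markers, Itgax was listed at 0 in 17 of 27 libraries, among them all of periosteum P1, muscle P3, and bone marrow P1 and P3. It was 21.1 to 61.3 in bone marrow P2 and up to 176 in periosteum P2. Csf1r was at 0 in 5 libraries and Flt3 in 1. The B lineage list (9 of 9 genes) had a median of at least 10 for 8 genes in bone marrow P2, 6 in P3 and 1 to 3 elsewhere, summing to 771 to 1864 in bone marrow P2 and 133 to 1343 in P3. Cd79a was at 0 in 11 libraries, and was 80.3 to 411 in bone marrow P2 and 0.709 to 404 in P3. The neutrophil list (7 of 7 genes) summed to 10248 to 236099 in bone marrow, with S100a8 at 3029 or more and Ngp at 443 or more in all 9 libraries, to 351 to 98879 in periosteum P2 and to at most 1205 in the remaining groups. The stromal list (6 of 6 genes) summed to 2585 to 8186 in bone marrow P2 and to at least 4550310 in bone marrow P1. Its sum was 40476.5 to 168524 in bone marrow P3. In periosteum it was 28685 to 79111 in P2 and at least 1139600 in P1, and in muscle 102937 to 156994 in P2 and at least 332538 in P1.

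**Figure D4:**
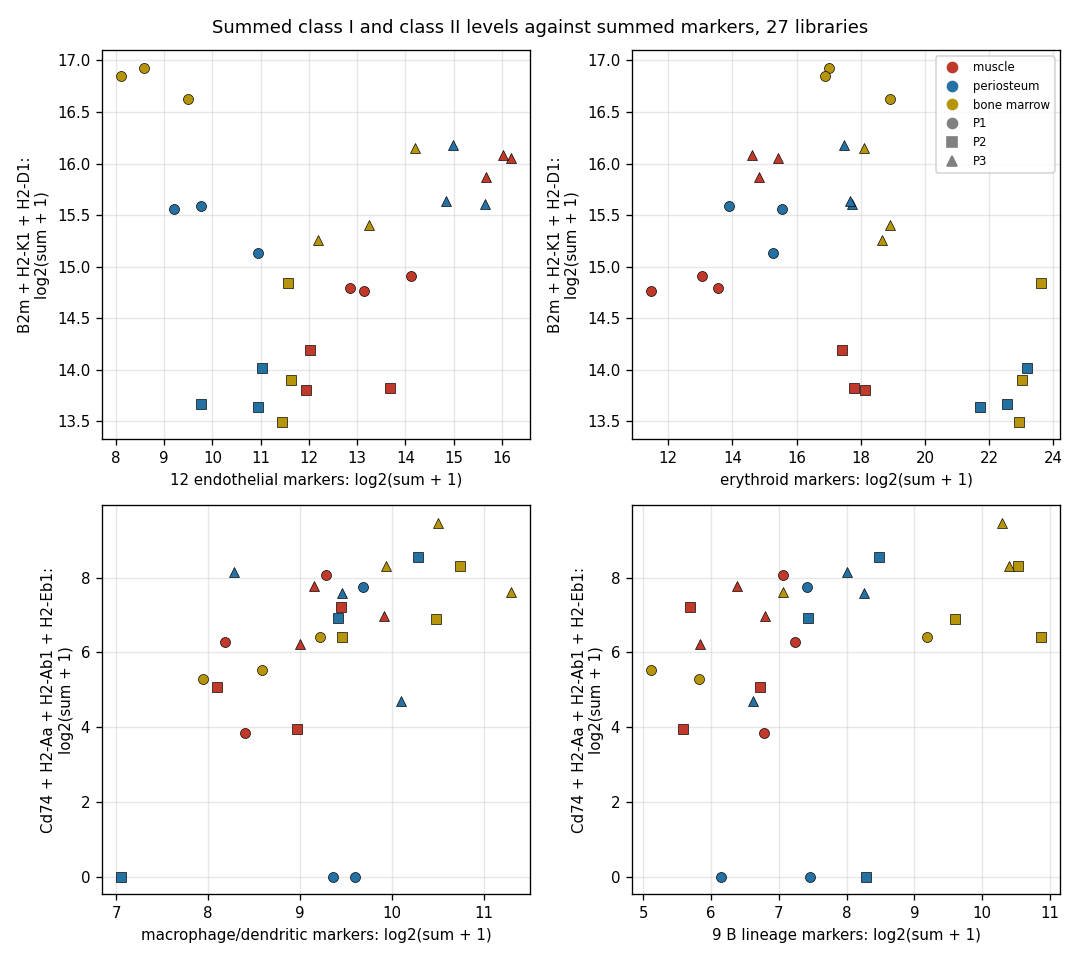
Summed class I levels (B2m, H2-K1 and H2-D1; top) and class II levels (Cd74, H2-Aa, H2-Ab1 and H2-Eb1; bottom) of 27 libraries against the summed markers of 4 cell types, as log2(sum + 1) on both axes; colour gives the tissue and shape the subpopulation. The class I sum is highest in bone marrow P1, where the endothelial sum is at most 715, and within each tissue it is lowest in P2, where the erythroid sum is highest.

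The rest of the class I pathway was read from a list of 22 further genes for heavy chains, peptide loading, the immunoproteasome and transcription, all in the table and tested. In muscle against periosteum 6 were higher and 0 lower, where 17.2% of all genes were higher and 3.19% lower, and the list median was 0.61 against 0.56 for all genes. Psmb9 was higher by 4.19 ± 0.83, Erap1, which trims peptides in the endoplasmic reticulum, by 3.64 ± 0.85, and Tap2, the partner of Tap1 in the pump, by 2.75 ± 0.58 (limma adjusted p 0.000755, 0.00294 and 0.00126). In periosteum against bone marrow 1 was higher and 5 lower, where 4.01% of all genes were higher and 16.8% lower (median -0.66 against -0.69). In muscle against bone marrow 1 was higher, Irf1, an interferon-induced transcription factor (3.65 ± 0.37), and 3 were lower, with H2-Q10 at -2.24 ± 0.43 and Nlrc5, the class I counterpart of Ciita, at -2.04 ± 0.65 (limma adjusted p 0.000289 and 0.0204), where 10.9% of all genes were higher and 10.8% lower. The median there was 0.07 against -0.10 for all genes. With quantile normalization the medians were 0.52 against 0.15 in muscle against periosteum and -0.66 against -0.25 in periosteum against bone marrow. Without the 3 periosteum libraries of few genes, the counts were 5 higher and 1 lower in the first and 1 and 3 in the second.

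Nonclassical class I genes did not all follow H2-K1 and H2-D1. H2-Q7 was higher in bone marrow P1 than in P2 and P3 by 2.94 ± 0.61 (limma adjusted p 0.00113), with 5961 to 7692 in P1, 398 to 503 in P2 and 1263 to 3657 in P3. H2-T24 had the opposite order, at 39.6 to 183 in bone marrow P1, 1184 to 1912 in P2 and 103 to 180.1 in P3, and was lower in P1 by -2.32 ± 0.69 (limma adjusted p 0.0193). In periosteum H2-T24 was 513 to 989 in P2, 14.4 to 185 in P1 and 113 to 146 in P3 (P1 lower by -2.21 ± 0.69, limma adjusted p 0.0426). This was the 1 call of the list in periosteum, and none was lower with a pseudocount of 0.1, without the filter, rescaled to the same total, with quantile normalization or without the 3 periosteum libraries, where 2 of the 22 were higher. Over all tissues it was the only one of the 22 called in P1 against P2 and P3 (-2.15 ± 0.40, limma adjusted p 0.000383). Among all genes 6.88% were higher and 7.67% lower in P1 over all tissues. In bone marrow 2 of 22 were higher in P1 and 1 lower, where 7.48% and 11.5% of all genes were. In periosteum the counts were 0 and 1, where 4.32% and 4.84% were, and in muscle 0 and 0, where 0.591% and 0.455% were (limma). Pairs of single groups gave other counts. In P2 against P3, 1 was higher and 13 lower in periosteum, where 17.1% of all genes were called. The counts were 0 and 6 in muscle (11.2%) and 1 and 1 in bone marrow (20%). In P1 against P2 they were 8 and 1 in periosteum (19.1%), 3 and 0 in muscle (8.21%) and 3 and 1 in bone marrow (34%). These pair counts were not repeated under the alternatives.

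Of the class II pathway list, 18 of 20 genes were in the table and 16 were tested. In periosteum against bone marrow 1 was higher and 5 lower, where 4.01% of all genes were higher and 16.8% lower, with a median of -1.37 against -0.69 for all genes. The count of 5 was 3 without the 3 periosteum libraries of few genes or with a pseudocount of 5, 2 with quantile normalization and 1 of 9 genes tested at a mean of at least 50. Among the lower were Ctss, the protease that finishes invariant chain removal (-3.94 ± 1.04, limma adjusted p 0.00752), and Rfxap, a subunit of the RFX factor of class II promoters (-2.87 ± 0.78, limma adjusted p 0.00865). In muscle against periosteum Rfx5, another RFX subunit, was the 1 gene called, higher by 4.15 ± 1.05 (limma adjusted p 0.00564), where 17.2% of all genes were higher. Leaving out the 3 periosteum libraries gave 3 higher, and with quantile normalization 1 was higher and 2 lower. In muscle against bone marrow 1 was higher and 2 lower, where 10.9% and 10.8% of all genes were. Ctsl, a lysosomal protease, was higher in P1 than in P2 and P3 of bone marrow, with 5082 to 6180 in P1, 0, 0 and 86.4 in P2 and 1292 to 7185 in P3 (5.59 ± 0.84, limma adjusted p 3.49e-05). H2-DMb2, a chain of the peptide exchange factor H2-DM, was lower there (-4.68 ± 1.15, limma adjusted p 0.00516), and in all 2 genes of the list were higher and 3 lower in that comparison, where 7.48% and 11.5% of all genes were.

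The interferon list, 24 genes for receptors, signalling and induced genes, had 7 genes called in muscle against periosteum, each of them higher in muscle, where 17.2% of all genes were higher and 3.19% lower, with a median of 1.04 against 0.56 for all genes. Quantile normalization left 4 higher and 0 lower. Cxcl10, an interferon-induced chemokine, was 611 to 2419 in the 9 muscle libraries, 0 to 575 in periosteum and 0 to 108 in bone marrow, so muscle did not overlap either tissue (5.50 ± 1.20 over periosteum and 6.70 ± 1.20 over bone marrow, limma adjusted p 0.00177 and 0.000134). In muscle against bone marrow 3 were higher and 1, Isg15, lower (-2.61 ± 0.73, limma adjusted p 0.0084), where 10.9% and 10.8% of all genes were. In periosteum against bone marrow 0 were higher and 5 lower, where 4.01% and 16.8% of all genes were (median -0.50 against -0.69). When each library was rescaled to the same total, the last count became 1 higher and 1 lower, and with quantile normalization 2 and 2. In bone marrow the receptor chains Ifngr1 (1.66 ± 0.45) and Ifngr2 (1.73 ± 0.45) were higher in P1 than in P2 and P3 (limma adjusted p 0.00989 and 0.00761), but neither scaling by total nor without globins left a gene of the list called higher there.

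**Figure D5:**
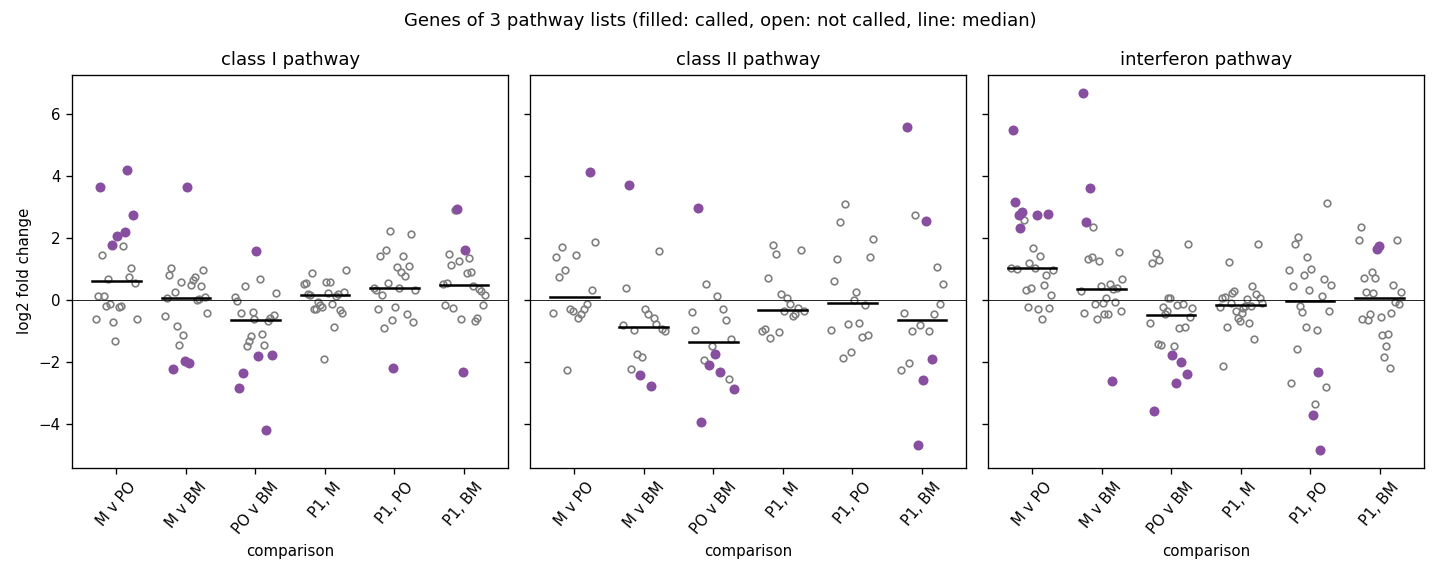
Log2 fold changes on the vertical axis of the genes of 3 pathway lists in 6 comparisons on the horizontal axis (M, muscle; PO, periosteum; BM, bone marrow; P1 stands for P1 against P2 and P3 in that tissue), with filled points for called genes, open points for others and a line for the list's median; the 9 members are not in the lists. In muscle against periosteum all called genes are higher in muscle, and in muscle alone no gene of any list is called for P1.

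Among the members, the levels of B2m, H2-K1 and H2-D1 had the highest correlations. Over the 27 libraries, which share tissue and subpopulation effects, Pearson's r of log2(normalized count + 1) was 0.94 for H2-K1 with H2-D1, 0.87 for B2m with H2-D1 and 0.83 for B2m with H2-K1, and 0.30 to 0.43 for Tap1 with these. Tap1 had its highest r, 0.56, with H2-Ab1. Among Cd74, H2-Aa, H2-Ab1 and Ciita it was between 0.03 and 0.50. In bone marrow P2 the ratio of B2m to H2-K1 counts was 6.69 to 8.88, against 1.33 to 4.04 in the other 24 libraries. The ratio of B2m to H2-D1 counts, 0.934 to 1.41 there, overlapped that of periosteum P1 (0.845 to 1.08) and P2 (0.425 to 2.15). These ratios were chosen after their values were seen and were not tested. Of all genes kept, those most like each member by r over the 27 libraries were Sppl2a (0.88) and Cdo1 (0.87) for B2m, Ctsa (0.91) and Tmem176b (0.90) for H2-K1, Cxcl12 (0.91) and H2-Q7 (0.90) for H2-D1, and Adck5 (0.92) and Rad51d (0.91) for Tap1. For class II they were Cyyr1 (0.77) and Lmbr1 (0.74) for Cd74, P2rx3 (0.78) and Kcnj14 (0.77) for H2-Aa, Scrib and Zik1 (both 0.81) for H2-Ab1, and Lctl (0.81) and Gm13574 (0.79) for Ciita.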

How the data were processed

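RNA of sorted cells was amplified with SMART-Seq v4, made into Nextera XT libraries and sequenced. The authors trimmed reads with Trim Galore, aligned them with STAR and normalized counts with DESeq2. The deposited values are normalized counts, treated as signal: they are not whole, and no single step per library made over 82.0% of low values whole, so reads were not recovered and no counting error is given. The genome build, annotation, counting tool and exact form of the normalization are not given in the sources used here. Comparisons between genes, per kilobase or as ratios, may depend on that form. Of 30153 genes (a transgene row was left out), 29732 identifiers were in GENCODE M21, used with GRCm38 for positions.

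Genes with at least 10 in at least 3 libraries (18442) were tested on log2(value + 1) with limma 3.58.1 (R 4.3.3; lmFit, eBayes with a trend), with 9 group means over 27 libraries and Benjamini-Hochberg adjustment within each comparison. Called means adjusted p below 0.05 and absolute log2 fold change above 1.5, the thresholds of the study's methods. Adgre1, Ahsp, Ifi30 and March1 of the lists were not analysed here. The code was tested on simulated data. The pathway genes named are the called ones with the 3 largest changes in each direction, and for each member the 2 genes with the highest r; the sorting markers and the defining cell type markers are also named, except some that are not reported here. Further genes, levels of single list genes and overlaps were chosen after values were seen. The members and lists were chosen with earlier results of these data known. Alternatives were other pseudocounts (0.1, 5), filters, scalings, a replicate block, eBayes without a trend, the p threshold alone and leaving out each library; 2 were added after seeing the data. Summaries were made with pandas 2.3.3 and numpy 2.4.6 under Python 3.11.15, and plots with matplotlib 3.10.9.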

Additional observations from a re-analysis of the deposited data

Results flagged for a closer look

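The change of P1 against P2 and P3 differed between tissues, by a test of the difference itself, for 5 results. For muscle minus bone marrow the differences were -1.83 for B2m, -2.40 for H2-K1 and -2.30 for H2-D1, and for periosteum minus bone marrow they were -1.92 for H2-K1 and -1.61 for H2-D1 (log2 scale, limma). By normalized counts, P1 of bone marrow stood above P2 and P3 in each case, whereas P1 of muscle lay between them. As a share of the total, which in bone marrow P1 holds large stromal counts, the summed class I levels of bone marrow P1 and P3 overlapped. Globins took 44.2% to 47.3% of bone marrow P2, and their part in these differences was not tested beyond the rescaling given in the report.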

How the results depend on the processing

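No called value of a member changed sign under the alternatives run. Counts of members called that moved by over 1.5 times were these. Muscle against periosteum had 2 and gave 1 with a pseudocount of 5, without a filter, at a mean of at least 50, with quantile normalization, rescaled without globins and without the 3 periosteum libraries of few genes. P1 over all tissues had 2 and gave 1 with pseudocounts of 0.1 and 5, without a filter and at a mean of at least 50, and 5 at adjusted p alone. P1 in bone marrow had 4 and gave 2 with quantile normalization and rescaled without globins. The changes of P1 between tissues had 5 and gave 2 rescaled to the same total, 3 with quantile normalization, 2 without a trend and 0 without globins (limma). At adjusted p alone, muscle against bone marrow gave 1 rather than 0, periosteum against bone marrow 5 rather than 3 and P1 in periosteum 2 rather than 1. Without the 3 periosteum libraries the last 2 gave 1 and 2. Leaving out each library gave 1 to 3 for muscle against periosteum (1 without any of 21 libraries; 2 or more without bone marrow P2 replicate 3, muscle P1 replicate 1, muscle P2 replicate 2, periosteum P1 replicate 2, P2 replicate 3 or P3 replicate 3), 1 to 3 for P1 over all tissues (1 without bone marrow P1 replicate 2, P2 replicate 1 or 3, P3 replicate 1 or 3, muscle P1 replicate 3, muscle P3 replicate 1, or periosteum P1 replicate 1 or 2), 0 to 1 for P1 in periosteum (0 without periosteum P1 replicate 1), 2 to 3 for periosteum against bone marrow, 23 to 29 for the 18 pairs (main 27) and 4 to 6 for the changes between tissues; it left P1 in bone marrow at 4, and muscle against bone marrow and P1 in muscle at 0. With the replicate number as a block, all 224 member results kept their call and direction; the 18 pairs gave 27 calls. Of the class I pathway genes, the 1 called lower in P1 of periosteum was not called with the block (0 of 22, limma). Same-numbered libraries did not deviate together (mean r 0.000242, from -0.0592 to 0.0502 over 36 pairs of groups), and 10 of 27 libraries correlated best with their own number. Rescaling without globins moved the median of all genes in P1 against P2 and P3 of bone marrow from -0.39 to -1.12, with 784 higher and 3750 lower rather than 1379 and 2115; quantile normalization moved it in muscle against periosteum from 0.56 to 0.15, with 2100 higher and 1532 lower rather than 3178 and 589. Depth in reads is unknown, so low class II values carry no counting error.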
